A study of Mus musculus with 3 samples.

Results

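Mt1, Mt2, Fkbp5, Tsc22d3, Ddit4, Sgk1, Klf9, Tat and Jdp2 were followed as 9 of the 32285 features counted in a droplet single-cell RNA profile of mouse liver. They were matched by symbol. The genes are metallothioneins or targets of the glucocorticoid receptor, and they were chosen by earlier-known ratios of their UMI counts between these libraries in the cell classes described here. Those ratios are therefore given as a description, with no test. The cells came from livers of 9-week-old male C57BL/6 mice, and every mouse was Ifih1-/- and Alb-Cre+, controls included. The groups differed in Adar1, which was flox/flox, wt/flox or wt/wt, with 1 library each. Ifih1 encodes the RNA sensor MDA5, Adar encodes the RNA-editing enzyme ADAR1, and the albumin promoter drives Cre in hepatocytes, so that the other liver cells should keep their floxed alleles. The study asked what loss of ADAR1 does on a background without MDA5.

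Metallothioneins are small cysteine-rich proteins that bind zinc and copper. In liver their genes are switched on by zinc, through the transcription factor MTF-1 at metal response elements, and by glucocorticoids and inflammatory cytokines. Glucocorticoids act through a nuclear receptor, the product of Nr3c1, which binds glucocorticoid response elements near its targets. In hepatocytes the hormone raises enzymes of amino acid breakdown and gluconeogenesis, and in many cell types it raises its own feedback regulators.

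The promoter windows of Mt1, Mt2 and Sgk1 are shown because they hold the most matches to the elements named above among the 9 genes. They are RefSeq sequences of GRCm38.p6, from 250 bases before to 50 bases after a transcript start, all on the + strand. Capitals mark matches on either strand to the metal response element cores TGCACNC and TGCGCNC and to the glucocorticoid receptor unit TGTTCT.
Mt1, chr8:94178839-94179138: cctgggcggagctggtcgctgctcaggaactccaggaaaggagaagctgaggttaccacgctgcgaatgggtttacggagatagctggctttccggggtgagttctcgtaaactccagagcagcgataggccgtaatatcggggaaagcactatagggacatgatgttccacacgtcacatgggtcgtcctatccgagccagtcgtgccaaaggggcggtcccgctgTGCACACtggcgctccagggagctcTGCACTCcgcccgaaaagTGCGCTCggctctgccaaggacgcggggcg
Mt2, chr8:94172368-94172667: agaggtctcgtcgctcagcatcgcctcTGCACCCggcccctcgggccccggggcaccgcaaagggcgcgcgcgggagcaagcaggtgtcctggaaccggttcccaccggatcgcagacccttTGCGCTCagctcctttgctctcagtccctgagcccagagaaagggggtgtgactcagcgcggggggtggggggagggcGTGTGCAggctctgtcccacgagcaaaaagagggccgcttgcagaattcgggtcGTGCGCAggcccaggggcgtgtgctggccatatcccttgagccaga
Sgk1, chr10:21993640-21993939: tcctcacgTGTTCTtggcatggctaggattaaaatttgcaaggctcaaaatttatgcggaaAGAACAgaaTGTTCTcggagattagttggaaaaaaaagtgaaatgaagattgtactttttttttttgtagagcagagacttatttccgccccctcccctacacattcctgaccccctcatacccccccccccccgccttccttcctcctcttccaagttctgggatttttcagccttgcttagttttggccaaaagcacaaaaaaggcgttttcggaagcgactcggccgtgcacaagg
The Mt1 window held 3 metal response element cores and the Mt2 window 4, and neither held TGTTCT. Of 32851 promoter windows, 25.7% held at least 1 such core, 1.97% held as many as Mt1 and 0.517% as many as Mt2. The TGTTCT unit was found in 19.0% of all windows, and among the 9 genes in windows of Sgk1 and Tsc22d3. The Sgk1 window shown held 3 units, of which AGAACA and TGTTCT with NNN between them formed a full inverted element that overlaps both, and 3 of the 32851 windows held this element (0.00913%). RefSeq gave 18 windows for the 9 genes, 6 of them for Sgk1, and the 3' reads do not tell which start was used. The matched letters are a description, and binding was not measured.

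Each library held 10000 barcodes, and the totals of unique molecular identifiers (UMIs, each marking 1 captured transcript) were 10756790, 10067929 and 9744380 in flox/flox, wt/flox and wt/wt. Of these barcodes 9772, 9920 and 9878 were kept. Their median depth was 932, 898.5 and 853 UMIs, and their median mitochondrial share was 7.05%, 4.07% and 4.86%. Adar in hepatocyte-like barcodes stood at 35.3 CPM (a gene's part of all UMIs summed over a class, on the usual CPM scale) in the library labelled flox/flox, 17.3 in wt/flox and 10.3 in wt/wt, which goes against the labels. The labels do not give the deleted exons, and a 3' tag outside the deleted stretch does not check the genotype, so flox/flox, wt/flox and wt/wt below mean the libraries so labelled and every direction rests on those labels. Ifih1 had 0, 1 and 0 UMIs over all kept barcodes, and the limit of 3 UMIs that a count of 0 allows equals 0.284 CPM in flox/flox and 0.311 CPM in wt/wt. Hepatocyte-like barcodes numbered 7832, 7345 and 8253, with a median mitochondrial share of 7.87%, 4.16% and 5.01%, and formed 12 clusters, and different clusters held most of them in each library: clusters 1, 4 and 7 in flox/flox, 2, 6 and 7 in wt/flox, and 3, 10 and 2 in wt/wt. Kupffer-like, endothelial-like, stellate-like (stellate or fibroblast), T-like and B-like barcodes numbered between 102 and 592 per class and library. All 12 of the 12 markers of each class were above the other barcodes in each library. The T-like cluster was also led by the natural killer genes Gzma, Klrb1c and Nkg7 and the B-like cluster by the plasma cell genes Jchain and Mzb1. In the stellate-like cluster 12 endothelial markers were also 4-fold up, beside 11 of its own markers. Stellate-like values may therefore include endothelial RNA. Pairs of libraries shared 20 to 32 barcode sequences.

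With 1 library per group no difference has a replicate check. Intervals are at 95% and cover counting error alone. In hepatocyte-like barcodes, 8 of the 9 genes reached 20 UMIs over the 3 libraries, while Jdp2 had 4, 2 and 1 UMIs in flox/flox, wt/flox and wt/wt. Of those 8, 7 were at least 1.5-fold lower in the library labelled wt/flox than in wt/wt and 0 were higher, beside 7.01% of all 11361 genes lower and 9.96% higher. In flox/flox over wt/flox, 5 of the 8 were at least 1.5-fold higher and 0 lower, beside backgrounds of 13.4% and 9.72%. In flox/flox over wt/wt, 1 was higher (background 14.4%) and 3 were lower (7.42%). The median log2 ratio of the 8 genes was 0.09 in flox/flox over wt/wt, -1.64 in wt/flox over wt/wt and 1.67 in flox/flox over wt/flox, beside 0.08, 0.04 and 0.04 for all genes. These comparisons share libraries, and the 9 genes were picked with their ratios known.

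**Figure D1:**
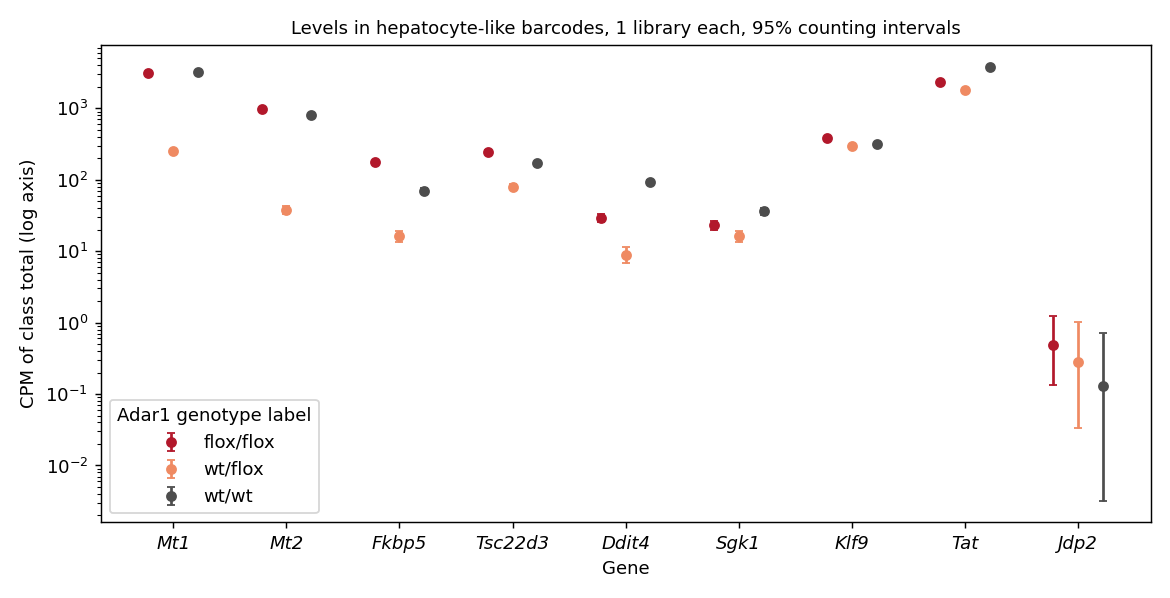
CPM of each gene in hepatocyte-like barcodes on a log axis, with 1 point per library and 95% Poisson intervals. For Mt1, Mt2, Fkbp5, Tsc22d3 and Ddit4 the wt/flox point lies at least 1.5-fold below both others, whereas the 3 Klf9 points lie within 1.5-fold of each other and Jdp2 rests on 4, 2 and 1 UMIs.

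Mt1 and Mt2, the metallothionein genes expressed in liver, were far lower in hepatocytes of wt/flox than in those of both other libraries. Mt1 (ENSMUSG00000031765, mm10 chromosome 8, 94179082 to 94180327) stood at 3079 CPM in flox/flox (3041 to 3117; 25432 UMIs), 251 CPM in wt/flox (239 to 263; 1798 UMIs) and 3231 CPM in wt/wt (25302 UMIs). Mt2 (ENSMUSG00000031762, 94172664 to 94173568), which lies 5513 bp upstream of Mt1 on the same strand, stood at 963, 37.8 and 811 CPM. The wt/flox library alone was low, and the intervals of the other libraries were far above it. On the log2 scale wt/flox over wt/wt came to -3.69 (-3.76 to -3.62) for Mt1 and -4.42 (-4.60 to -4.25) for Mt2, which is the lowest of the 11361 genes. That of flox/flox over wt/wt was -0.07 (-0.09 to -0.04) for Mt1 and 0.25 (0.20 to 0.30) for Mt2, and that of flox/flox over wt/flox was 3.62 and 4.67. Both genes thus differed little between flox/flox and wt/wt. The balance between them also differed: hepatocyte-like barcodes held 3.20 Mt1 UMIs per Mt2 UMI in flox/flox (3.12 to 3.28), 6.63 in wt/flox (5.84 to 7.57) and 3.99 in wt/wt (3.88 to 4.10). Mt2 was thus the further below of the pair in wt/flox.

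The Mt1 UMIs of each hepatocyte-like barcode were also counted. To compare libraries at equal depth, each barcode was thinned to 1000 UMIs, which left 2909, 2314 and 2375 hepatocyte-like barcodes in flox/flox, wt/flox and wt/wt and left out 4923, 5031 and 5878 shallower ones. After thinning, 11.7% of barcodes in flox/flox, 79.1% in wt/flox and 6.44% in wt/wt had no Mt1 UMI. Barcodes with 5 or more Mt1 UMIs made up 21.8% in flox/flox, 0.130% in wt/flox and 26.4% in wt/wt. The distribution in wt/flox ended at 5 UMIs, against 25 in flox/flox and 17 in wt/wt. At least 1 Mt2 UMI was seen in 54.8% of barcodes in flox/flox, 3.67% in wt/flox and 53.5% in wt/wt. Without thinning, 89.7% of hepatocyte-like barcodes had an Mt1 UMI in flox/flox and 20.2% in wt/flox. T-like barcodes, which carry hepatocyte RNA as described below, give the background of such shares, which includes most of the Mt1 detection and so does not tell whether all cells or a subset differ: thinned alike, 76.6%, 13.3% and 86.1% held an Mt1 UMI, beside 88.3%, 20.9% and 93.6% in hepatocyte-like ones, with median depths of 967, 962.5 and 988 UMIs beside 904, 863 and 825 in flox/flox, wt/flox and wt/wt. Among barcodes without an Mt1 UMI, 39.1% still had an Mt2 UMI in flox/flox and 39.2% in wt/wt, and 3.17% did in wt/flox. Fkbp5 was seen in 17.9% of barcodes without an Mt1 UMI and 18.5% of those with 5 or more in flox/flox, and in 8.50% and 8.28% of such barcodes in wt/wt.

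**Figure D2:**
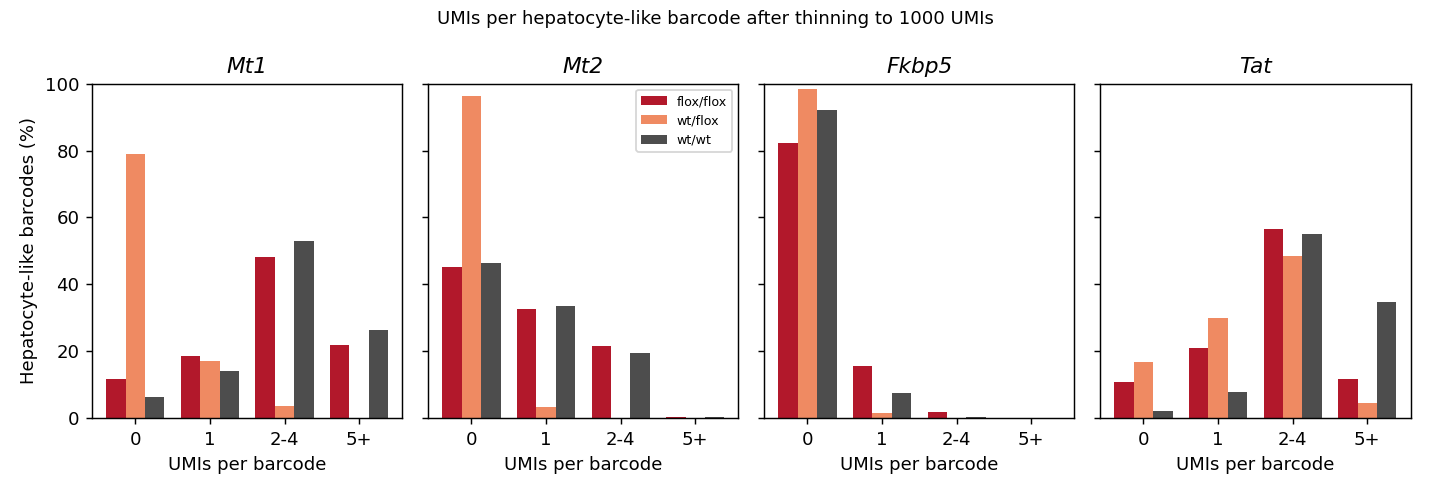
Share of hepatocyte-like barcodes (percent) with 0, 1, 2 to 4 or 5 or more UMIs of 4 of the genes after thinning each barcode to 1000 UMIs. For Mt1 the wt/flox bars stand at 79.1% with 0 UMIs, beside 11.7% in flox/flox and 6.44% in wt/wt, while the 3 libraries overlap more for Tat.

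Fkbp5 and Tsc22d3 encode feedback and effector proteins of the hormone: FKBP51, a co-chaperone that lowers the affinity of the receptor, and GILZ, a leucine zipper protein that restrains inflammatory signalling. Fkbp5 (ENSMUSG00000024222, chromosome 17, 28399094 to 28517527, - strand) stood at 174 CPM in flox/flox (1440 UMIs), 16.2 in wt/flox (116 UMIs) and 70.2 in wt/wt (550 UMIs). The 3 libraries were thus all apart, with flox/flox highest and wt/flox lowest. Its log2 ratio was 1.31 (1.17 to 1.46) in flox/flox over wt/wt, -2.12 (-2.42 to -1.83) in wt/flox over wt/wt and 3.43 (3.16 to 3.72) in flox/flox over wt/flox. Fkbp5 was the 1 gene of the 8 that was at least 1.5-fold higher in flox/flox than in wt/wt. Tsc22d3 (ENSMUSG00000031431, chromosome X, 140539528 to 140600659, - strand) had the same order at 248, 80.2 and 169 CPM in flox/flox, wt/flox and wt/wt, with log2 ratios of 0.55 (0.45 to 0.65) in flox/flox over wt/wt and -1.08 (-1.22 to -0.94) in wt/flox over wt/wt. Its first ratio lies just under the 1.5-fold limit.

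Ddit4 and Sgk1 act on kinase signalling. Ddit4 encodes REDD1, an inhibitor of the growth kinase complex mTORC1 that glucocorticoids, hypoxia and energy stress induce, and Sgk1 encodes a serum- and glucocorticoid-regulated kinase related to AKT. Ddit4 (ENSMUSG00000020108, chromosome 10, 59949669 to 59951834, - strand) stood at 29.4 CPM in flox/flox (243 UMIs), 8.92 in wt/flox (64 UMIs) and 93.0 in wt/wt (728 UMIs). Here flox/flox lay between the other libraries rather than near wt/wt. Its log2 ratio was -1.66 (-1.88 to -1.45) in flox/flox over wt/wt, -3.38 (-3.77 to -3.01) in wt/flox over wt/wt and 1.72 (1.32 to 2.14) in flox/flox over wt/flox. Sgk1 (ENSMUSG00000019970, chromosome 10, 21882184 to 21999903) was sparse in hepatocytes, at 23.0, 16.2 and 36.3 CPM in flox/flox, wt/flox and wt/wt, with log2 ratios of -0.66 (-0.93 to -0.39) in flox/flox over wt/wt and -1.17 (-1.49 to -0.85) in wt/flox over wt/wt. In barcodes with at least 2000 UMIs the first of these turned to 0.29.

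Tat encodes tyrosine aminotransferase, the enzyme that starts tyrosine breakdown and a classical hormone-induced gene of hepatocytes. Tat (ENSMUSG00000001670, chromosome 8, 109990437 to 109999803) stood at 2346 CPM in flox/flox, 1780 in wt/flox and 3814 in wt/wt. Both libraries with a floxed allele were thus below wt/wt and closer to each other, with log2 ratios of -0.70 (-0.73 to -0.67) in flox/flox over wt/wt, -1.10 (-1.13 to -1.07) in wt/flox over wt/wt and 0.40 (0.37 to 0.43) in flox/flox over wt/flox. After thinning, 89.2%, 83.2% and 97.7% of hepatocyte-like barcodes had a Tat UMI in flox/flox, wt/flox and wt/wt, and barcodes with 5 or more made up 11.6%, 4.62% and 34.7%. Thinned T-like barcodes, in which Tat was near the level from hepatocyte RNA, held a Tat UMI in 71.8%, 71.1% and 91.1%, so that most of this detection is also found as background.

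Klf9 and Jdp2 encode transcription factors, a Krüppel-like factor induced by glucocorticoid and thyroid hormone and a partner of Jun that represses AP-1 sites. Klf9 (ENSMUSG00000033863, chromosome 19, 23141226 to 23168134) stood at 377 CPM in flox/flox, 297 in wt/flox and 316 in wt/wt, and was within 1.5-fold in every comparison. Its log2 ratio was 0.26 (0.18 to 0.33) in flox/flox over wt/wt and -0.09 in wt/flox over wt/wt, with an interval from -0.17 to just below 0. Jdp2 (ENSMUSG00000034271, chromosome 12, 85599027 to 85639878) was close to undetected in hepatocytes, at 0.484, 0.279 and 0.128 CPM, and its level there cannot be compared at this depth. The order of the genes between flox/flox and wt/wt was therefore mixed, whereas 7 of the 8 were at least 1.5-fold lower in wt/flox than in wt/wt.

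The differences were read within subsets of hepatocyte-like barcodes, since depth, mitochondrial share and position along the lobule differ between cells. Barcodes were cut into 12 overlapping subsets, 3 each by UMIs per barcode, by periportal and pericentral markers, by mitochondrial share and by the share of the nuclear transcripts Malat1 and Neat1. In wt/flox over wt/wt, Mt1 was between -3.87 and -3.56, Mt2 between -4.67 and -3.71, Fkbp5 between -2.40 and -1.61, Ddit4 between -3.71 and -3.19 and Tat between -1.13 and -1.04 over the 12 subsets. All of these, with Tsc22d3 and Sgk1, were at least 1.5-fold lower in 12 of 12 subsets. In flox/flox over wt/wt, Fkbp5 was at least 1.5-fold higher in 12 of 12 subsets, between 1.00 and 1.90, and Mt1 stayed between -0.33 and 0.14. Of the 12 hepatocyte-like clusters, 10 held at least 100 barcodes, and within these Mt1 in wt/flox over wt/wt lay between -4.01 and -3.24 and Mt2 between -5.57 and -3.85. Tsc22d3, Ddit4 and Tat were also at least 1.5-fold lower in 10 of the 10 clusters, Fkbp5 in 9 (-2.88 to -0.58) and Sgk1 in 6 (-1.78 to 0.26), some of them on few UMIs. Against wt/wt, flox/flox was at least 1.5-fold higher in Fkbp5 and lower in Ddit4 in 10 of the 10 clusters. Sgk1 was the least uniform, between -1.17 and 0.29 over the subsets in flox/flox over wt/wt. All subsets and clusters come from the same libraries and may share the hepatocyte RNA found in other classes. T-like and B-like barcodes, with Mt1 no higher than that RNA would give, had Mt1 at -3.99 and -3.72 in wt/flox over wt/wt. A cut of barcodes may thus repeat a difference carried by that RNA, and the subset and cluster counts are not independent checks.

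Position along the lobule was compared within each library. The log2 ratio of the most pericentral over the most periportal barcodes was -0.06 in flox/flox, -0.28 in wt/flox and -0.16 in wt/wt for Mt1, beside 3.05, 1.95 and 2.11 for Cyp2e1, a pericentral enzyme that served to set the cut. Among the 9 genes, the value furthest from 0 with an interval that excluded 0 was that of Fkbp5 in wt/wt, at -0.63 (-0.94 to -0.32), with 54.7 CPM in pericentral and 84.3 in periportal barcodes. In flox/flox the Fkbp5 value was -0.17 (-0.35 to 0.01).

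Outside the hepatocytes most of these genes also had lower values in wt/flox than in wt/wt in each of the 5 other classes. At least 1.5-fold lower in wt/flox than in wt/wt were 7 of 9 measured genes in Kupffer-like barcodes (13.6% of all genes), 8 of 9 in endothelial-like (13% of all genes), 6 of 8 in stellate-like (14.6%), 6 of 8 in T-like (16.6%) and 5 of 6 in B-like barcodes (17.5%). Of these, Tsc22d3 in stellate-like barcodes had an interval of -1.64 to 0.31, which included 0. Sgk1 in T-like barcodes was the 1 gene higher (15.1% of all genes), and 0 were higher in Kupffer-like (20.1%), endothelial-like (12.1%), stellate-like (15% of all genes) and B-like barcodes (18.1%). In flox/flox over wt/wt the counts lower were 3 of 9 in Kupffer-like (13.7%), 2 of 9 in endothelial-like (15.8%), 2 of 8 in stellate-like (18.8%), 2 of 8 in T-like (13.2%) and 1 of 6 in B-like barcodes (19% of all genes). Among these, the intervals of Ddit4 and Jdp2 in endothelial-like barcodes included 0. So did those of Ddit4 in stellate-like and T-like barcodes. Fkbp5 was the 1 gene higher in T-like (19.8%) and in B-like barcodes (19.9%). Its B-like ratio, from 29 UMIs in flox/flox and 9 in wt/wt, had an interval of -0.001 to 2.38, which included 0. In Kupffer-like (21.7%), endothelial-like (17.1%) and stellate-like barcodes (17.2%) 0 were higher. In flox/flox over wt/flox, 5 of 9 were higher in Kupffer-like (15.3%), 6 of 9 in endothelial-like (18.8%), 6 of 8 in stellate-like (17.1%), 4 of 8 in T-like (19.3%) and 4 of 6 in B-like barcodes (17.5%). In that comparison Sgk1 in T-like barcodes was the 1 gene lower (11.6%), and 0 were lower in Kupffer-like (15.3%), endothelial-like (17.2%), stellate-like (20.4%) and B-like barcodes (19.1%).

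**Figure D3:**
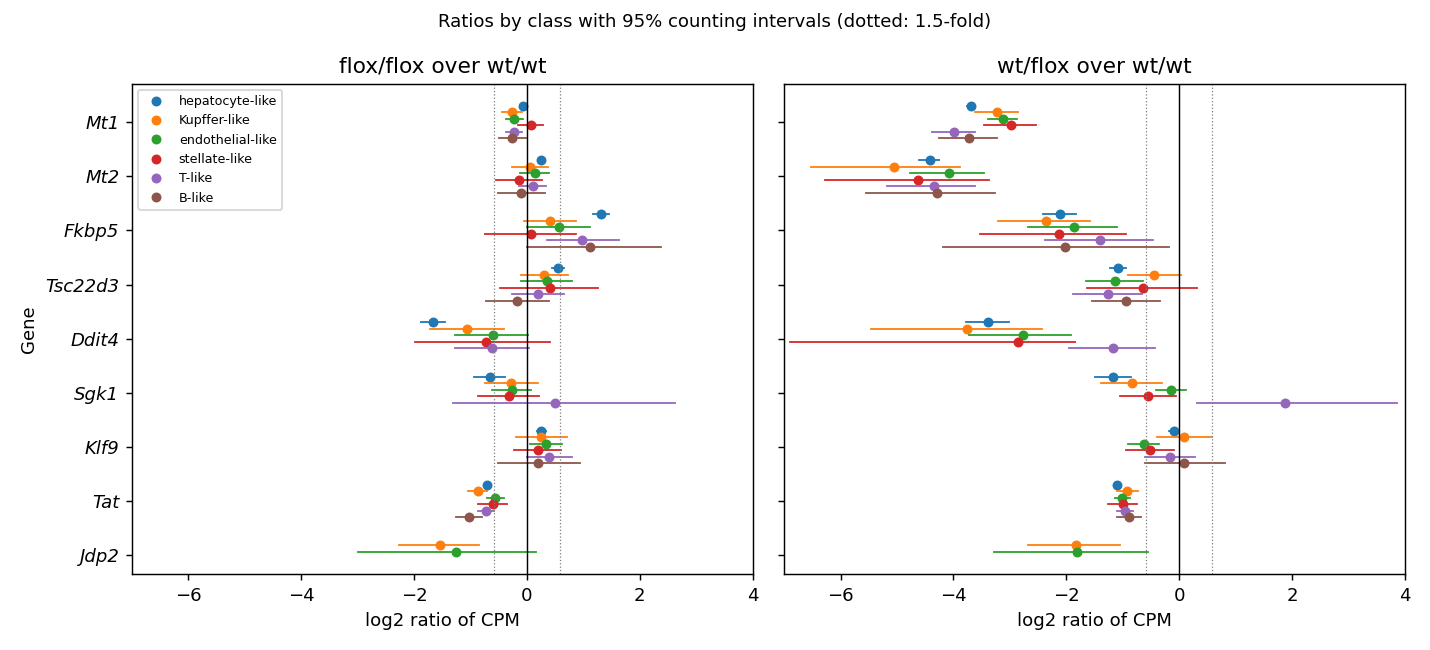
Log2 ratios of CPM over wt/wt for flox/flox (left) and wt/flox (right), 1 row per gene and 1 colour per cell class, for genes with at least 20 UMIs over the 3 libraries; lines are 95% counting intervals, and that of Ddit4 in stellate-like barcodes runs past the axis. In the wt/flox panel Mt1, Mt2, Fkbp5 and Tat lie below the 1.5-fold line in all 6 classes, and Sgk1 in T-like barcodes lies above 0.

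These classes also carried hepatocyte RNA. From 12 hepatocyte markers, the hepatocyte share of UMIs was put at 42.2% (Kupffer-like, flox/flox) to 67.6% (B-like, wt/flox), and a gene's level from hepatocyte RNA at that share of its hepatocyte CPM. Tat, a gene of hepatocytes, was measured at 1.03 to 1.53 times the level so given over the 5 other classes and 3 libraries. This is the range to read the other genes against. Every Tat value lies above the level so given. That level may therefore be too low, and what is left after its subtraction too high. Mt1 was at 0.787 to 1.02 times it in T-like and 0.858 to 1.01 times it in B-like barcodes, so Mt1 there was no higher than hepatocyte RNA would give. In Kupffer-like barcodes Mt1 was at 1.11, 1.56 and 1.10 times it in flox/flox, wt/flox and wt/wt, within or just past the range of Tat. In endothelial-like barcodes Mt1 was at 1.24, 1.79 and 1.26 times and in stellate-like ones at 1.45, 1.99 and 1.22 times the expected level. In flox/flox and wt/wt all of these values lie at or below the highest value of Tat, so in the 5 other classes a difference in the cells' own Mt1 cannot be told apart from that in the hepatocyte RNA they carry.

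**Figure D4:**
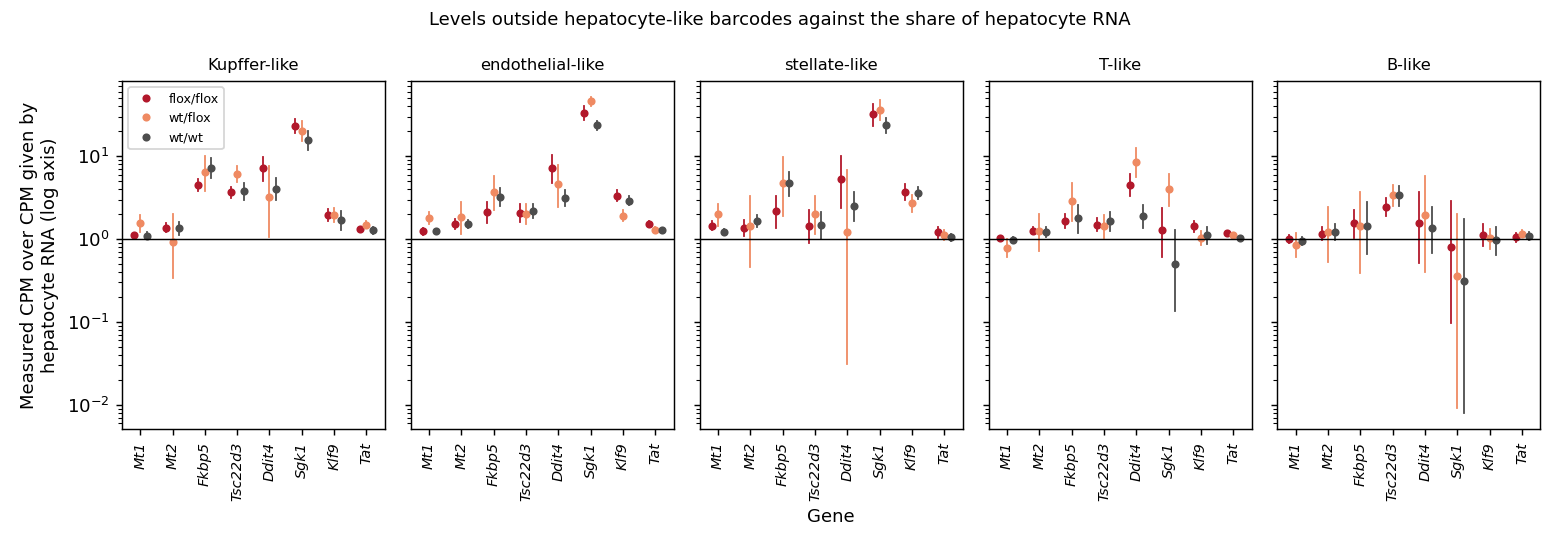
Measured CPM over the CPM that the estimated hepatocyte RNA would give (log axis), by gene, cell class and library, with 95% Poisson intervals of the measured count; 1 means that hepatocyte RNA alone gives the level. Mt1, Mt2 and Tat lie between 0.787 and 1.99, whereas Sgk1 lies between 15.6 and 45.6 in Kupffer-like, endothelial-like and stellate-like barcodes.

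Fkbp5, Tsc22d3, Ddit4 and Klf9 were above the hepatocyte RNA in Kupffer-like and endothelial-like barcodes of all 3 libraries. Fkbp5 was at 331 CPM in flox/flox, 48.8 in wt/flox and 250 in wt/wt in Kupffer-like barcodes, which is 4.49, 6.40 and 7.30 times the level from hepatocyte RNA. After that level was subtracted, 257, 41.1 and 216 CPM remained, and the log2 ratio was 0.25 in flox/flox over wt/wt and -2.39 in wt/flox over wt/wt. The low Fkbp5 level of wt/flox was therefore also seen in the part of the Kupffer-like signal that hepatocyte RNA does not give. In endothelial-like barcodes 98.4, 25.7 and 87.9 CPM of Fkbp5 remained, with a log2 ratio of -1.77 in wt/flox over wt/wt, and in stellate-like barcodes it was -2.12. The stellate-like value rests on 7 UMIs in wt/flox, with an interval of -3.53 to -0.94 before subtraction, and may include endothelial RNA. In B-like barcodes Fkbp5 was at 1.44 to 1.54 times the level from hepatocyte RNA, close to the highest value of Tat. Its B-like differences cannot be told apart from those in the hepatocyte RNA.

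Ddit4 in Kupffer-like barcodes stood at 88.2 CPM in flox/flox (40 UMIs), 13.5 in wt/flox (5 UMIs) and 184 in wt/wt (42 UMIs), and in endothelial-like barcodes at 107, 24.0 and 163 CPM. The order of the libraries was that of the hepatocytes. After subtraction the log2 ratio of wt/flox over wt/wt was -3.89 in Kupffer-like and -2.56 in endothelial-like barcodes, the latter from 13 UMIs in wt/flox. No interval was computed for these subtracted ratios. For the 5 Kupffer-like UMIs of wt/flox, the lower end of the counting interval lies just above the level from hepatocyte RNA. The part that remains there may thus be very small, and the size of the Kupffer-like ratio is uncertain. In T-like barcodes Ddit4 stood at 73.6, 50.2 and 113 CPM in flox/flox, wt/flox and wt/wt, with a log2 ratio of -0.27 in wt/flox over wt/wt after subtraction. Tsc22d3 was at 384, 230 and 311 CPM in Kupffer-like and at 315, 185 and 355 CPM in B-like barcodes in flox/flox, wt/flox and wt/wt. After subtraction its ratio of wt/flox over wt/wt was -0.25 in Kupffer-like, -1.24 in endothelial-like and -0.93 in B-like barcodes.

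Sgk1 and Jdp2 had higher levels in Kupffer-like, endothelial-like and stellate-like than in hepatocyte-like barcodes, and so did Klf9 in endothelial-like and stellate-like ones. Sgk1 stood at 394, 428 and 474 CPM in endothelial-like barcodes of flox/flox, wt/flox and wt/wt and at 354, 304 and 443 CPM in stellate-like ones, against 23.0, 16.2 and 36.3 CPM in hepatocyte-like ones. In endothelial-like barcodes its levels were close, with log2 ratios of -0.26 (-0.61 to 0.07) in flox/flox over wt/wt and -0.15 (-0.41 to 0.12) in wt/flox over wt/wt. Klf9 reached 643, 330 and 510 CPM in endothelial-like and 675, 417 and 592 CPM in stellate-like barcodes, with wt/flox lowest in both and a log2 ratio over wt/wt of -0.63 (-0.91 to -0.35) and -0.51 (-0.94 to -0.08). Jdp2 was highest in Kupffer-like barcodes, at 66.2 CPM in flox/flox (30 UMIs), 54.2 in wt/flox (20 UMIs) and 193 in wt/wt (44 UMIs). Both libraries with a floxed allele were below wt/wt there, at -1.54 (-2.26 to -0.84) in flox/flox and -1.83 (-2.67 to -1.04) in wt/flox, and the interval of flox/flox over wt/flox, -0.58 to 1.18, included 0. In B-like barcodes Jdp2 had 0 UMIs in all 3 libraries.

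Genes around these pathways were read in hepatocyte-like barcodes, against the backgrounds given above. Other hepatic targets of the glucocorticoid receptor had 17 of 31 measured genes at least 1.5-fold lower in wt/flox than in wt/wt and 4 higher, with a median log2 ratio of -0.66. In flox/flox over wt/flox 16 were higher and 3 lower, and in flox/flox over wt/wt 7 were higher and 3 lower, with medians of 0.60 and 0.08. The lowest in wt/flox were Fam107a, with 0 UMIs in wt/flox and 8.35 and 3.70 CPM in flox/flox and wt/wt, and Lpin1, which encodes the phosphatidate phosphatase lipin 1, at 1484, 150 and 742 CPM in flox/flox, wt/flox and wt/wt. The ratio of Lpin1 in wt/flox over wt/wt was -2.30. At the other end were Irs2, an adaptor of the insulin receptor, at 19.6, 81.3 and 24.1 CPM, and Glul, glutamine synthetase, at 221, 204 and 96.8 CPM. More of the targets as a list were thus low than high in wt/flox, beside 7.01% of all genes lower and 9.96% higher than in wt/wt. The 4 of 31 higher are close to that background, so no upward shift is read from them.

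Genes of the receptor complex and its partners were read next. Of 16 genes of the receptor complex and of steroid handling, 1 was at least 1.5-fold higher and 0 were lower in wt/flox than in wt/wt, with a median of 0.09. For flox/flox over wt/wt 0 were higher and 2 lower, the co-chaperone gene Fkbp4 at -0.78 and the steroid reductase gene Srd5a1 at -0.61. Over wt/flox, flox/flox had 0 higher and 4 lower, namely both of these with the chaperone genes Hsp90aa1 and Hspa8, between -0.86 and -0.59. The receptor gene Nr3c1 stood at 75.7 CPM in flox/flox, 94.0 in wt/flox and 76.6 in wt/wt, and Hsd11b1, whose enzyme regenerates active hormone in liver, at 254, 293 and 219 CPM. The highest in wt/flox over wt/wt was the chaperone gene Hsp90aa1, at 0.76, followed by Hsd11b1 at 0.42, and the lowest were the steroid reductase gene Akr1d1 at -0.25 and the coactivator gene Ncoa2 at -0.13. Of 19 other genes of zinc and metal handling, 0 were past 1.5-fold in either direction in wt/flox over wt/wt, with a median of 0.23. Mtf1, which encodes the metal-sensing transcription factor, stood at 17.1, 18.7 and 17.5 CPM, and Slc30a1, a zinc exporter gene that MTF-1 also drives, at 23.0, 28.4 and 23.5 CPM in flox/flox, wt/flox and wt/wt. The list ran from the zinc importer gene Slc39a14 at -0.45 and Hmox1 at -0.16 to the transporter genes Slc30a10 at 0.44 and Slc30a5 at 0.45. The log2 ratios of Mt1 and Mt2 in wt/flox over wt/wt, -3.69 and -4.42, were outside the range of this list. Both genes were chosen with these ratios known, so this is a description, and a role of zinc was not tested.

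Genes of other signals that are known to act on metallothionein or glucocorticoid target genes also differed between the libraries. Of 22 genes of the interleukin-6 and acute phase response, 7 were higher and 1 lower in wt/flox than in wt/wt (median 0.41), led by the feedback inhibitor gene Socs3 at 3.52 and Orm2 at 2.40, with Il6ra at -1.83 and Stat3 at -0.36 the lowest. Of 16 immediate early and dissociation genes, 7 were higher and 2 lower (median 0.54), led by Fos at 3.54 and Egr1 at 2.22, with Klf2 at -1.16 and Klf6 at -0.69 the lowest. Socs3 stood at 2.06, 19.1 and 1.66 CPM and Fos at 4.36, 28.3 and 2.43 CPM in flox/flox, wt/flox and wt/wt. Of 18 circadian clock genes, 3 were higher and 6 lower (median -0.03), with Ciart at -3.33 (-5.68 to -1.66; 3 UMIs in wt/flox) and Per3 at -1.57 (-3.65 to 0.12) the lowest and Bhlhe41 at 1.59 (-0.17 to 3.69) and Per2 at 1.58 (0.87 to 2.34) the highest. The intervals of Per3 and Bhlhe41 include 0. Clock genes also differed in flox/flox, with 6 higher and 4 lower than in wt/wt and 7 higher and 6 lower than in wt/flox. Per1, which is both a clock gene and a glucocorticoid target, stood at 22.3, 6.55 and 13.7 CPM. Of 17 stress and mTORC1 genes around Ddit4, 3 were higher and 4 lower (median -0.21), with Trib3 at -1.16 and Depp1 at -1.08 the lowest and Nupr1 at 2.24 (0.38 to 4.69) and Ddit4l at 2.00 (0.08 to 4.48), both with 3 UMIs in wt/wt, the highest. The labels name no time of day, and the part of these signals in the levels of the 9 genes was not tested.

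**Figure D5:**
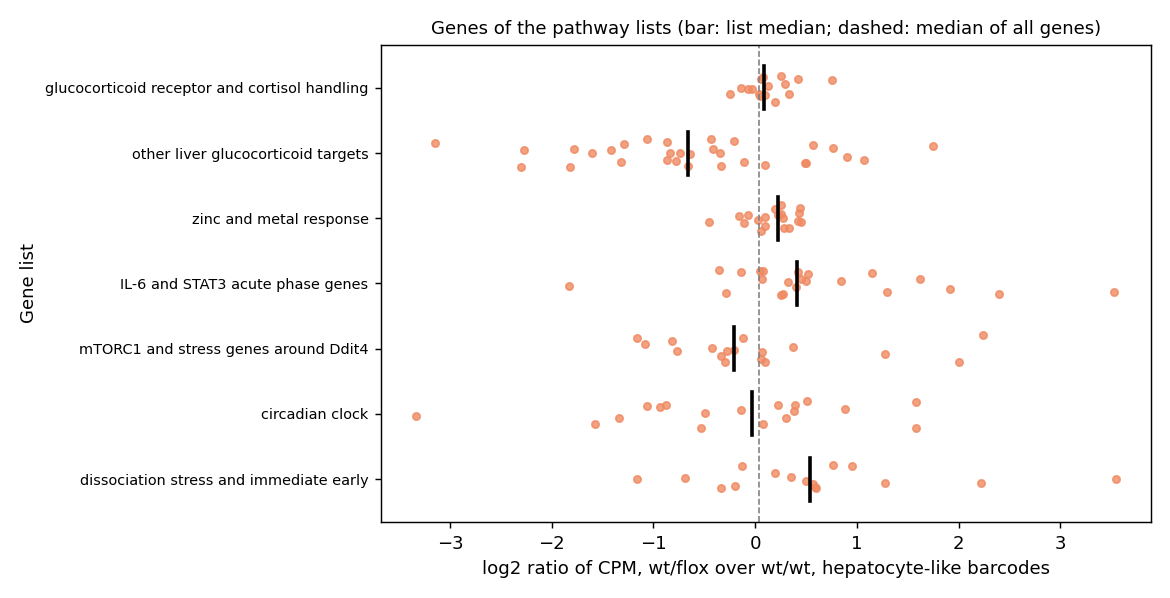
Log2 ratio of wt/flox over wt/wt in hepatocyte-like barcodes for each measured gene of 7 pathway lists (points), with the list median (bar) and the median of all genes (dashed line, 0.04). The list of other liver glucocorticoid targets has its median at -0.66, and the zinc and metal list lies between -0.45 and 0.45.

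A drop in wt/flox below both other libraries was rare among genes. Of 7830 genes with at least 50 UMIs in both flox/flox and wt/wt, 11 (0.140%) were at least 4-fold lower in wt/flox than in each of them. A count of 8 genes at least 4-fold higher in wt/flox is not compared with the 11. The floor of 50 UMIs leaves out genes such as Socs3, with 17, 137 and 13 UMIs in flox/flox, wt/flox and wt/wt. The 11 include Mt2, Mt1 and Fkbp5. The others with the largest drops were Rgs16, a regulator of G protein signalling, at 81.8, 4.74 and 58.6 CPM in flox/flox, wt/flox and wt/wt, Phf11c at 33.4, 3.35 and 37.0 CPM, the perilipin gene Plin4 at 27.2, 1.53 and 9.07 CPM, Lpin1, the transcription factor gene Zbtb16 at 64.9, 9.48 and 46.0 CPM and the uridine phosphorylase gene Upp2 at 428, 94.8 and 458 CPM. Lpin1 and Zbtb16 are also in the list of glucocorticoid targets above. Over the 18 sums of 6 classes and 3 libraries, the genes whose level was most like that of Mt1 were Rgs16 (Pearson r of log2(CPM + 10) 0.98), Got1 (0.95), Upp2 (0.94), Lpin1 (0.93) and Herpud1 (0.92), while r was 0.98 with Mt2, 0.80 with Fkbp5, 0.65 with Tat, 0.36 with Klf9 and 0.06 with Sgk1. These 18 points share 3 libraries and the hepatocyte RNA present in each class, so that r describes these sums alone.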

How the data were processed

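UMIs from the 10x Genomics 3' kit (v3.1, dual index) were taken from the deposited matrix of whole-number counts per gene and barcode, which the authors made with Cell Ranger 6.1.1 per the file headers. Seurat and the mm10 build are listed in the submitters' processing notes. How barcodes were chosen, with lowest totals of 636, 721 and 727 UMIs in flox/flox, wt/flox and wt/wt, and whether libraries were downsampled are not given in the sources used here. The barcode suffix gave the library. Collagenase perfusion, a slow spin and a Percoll step, all per the labels' protocols, favour hepatocytes.

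Barcodes needed 500 UMIs and 250 genes, with no more than 40% mitochondrial UMIs. They were scaled to 10000, log-transformed and clustered in scanpy 1.11.5 (2000 variable genes, 30 components, 15 neighbours, Leiden resolution 1, under Python 3.11.15 with scipy 1.17.1), without integration. A cluster was named from at least 3 markers that were 4-fold up in at least 5% of its barcodes, thresholds set with the data in hand; clusters with hepatocyte markers and no other class were called hepatocyte-like, which may include droplets that caught only free hepatocyte RNA. Scrublet (expected rate 0.08) called 2, 0 and 0 doublets in flox/flox, wt/flox and wt/wt, under 0.5%, so its calls were not used and no doublets were removed.

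UMIs were summed per class and library and given as CPM. Ratios used counts of at least 3 and exact conditional binomial intervals, CPM exact Poisson and shares exact Clopper-Pearson intervals, at 95%. Genes with at least 20 UMIs over the 3 libraries were measured; 1.5-fold was the threshold. Interval code was tested on simulated data. The 9 genes, the gene lists and the markers were chosen with earlier results of these data known. Named were all 9 genes, the 2 highest and 2 lowest genes of each list in wt/flox over wt/wt, the 5 genes most like Mt1 and the first 8 genes lowest in wt/flox; receptor genes and others given for their role were added beside these. Alternatives changed the scaling, barcode filters, classes, count floor and depth.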

Additional observations from a re-analysis of the deposited data

Results flagged for a closer look

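Sgk1 was the 1 gene at least 1.5-fold higher in one cell class and lower in others under the same contrast, with intervals that excluded 0. In T-like barcodes wt/flox over wt/wt came to 1.87 (0.31 to 3.87) on the log2 scale, from 22 UMIs (42.5 CPM) in wt/flox and 4 UMIs (11.6 CPM) in wt/wt, while flox/flox had 10 UMIs (16.4 CPM). In hepatocyte-like barcodes the ratio was -1.17 and in Kupffer-like barcodes -0.84. T-like Sgk1 was at 4.00 times the level from hepatocyte RNA in wt/flox, 1.28 times in flox/flox and 0.497 times in wt/wt. Its interval lay above that level in wt/flox alone, so no T-like ratio was read after subtraction. The difference between classes was not tested, since each group is 1 library.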

How the results depend on the processing

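Under 10 alternatives, the count of genes at least 1.5-fold lower in wt/flox than in wt/wt was 7 each time. The count higher in flox/flox than in wt/flox was 5, or 6 with at least 2000 UMIs per barcode, and the count lower in flox/flox than in wt/wt was 3, or 2 with at least 2000. The count higher in flox/flox than in wt/wt was 1, and 2 when the scaling left out mitochondrial and the 20 most abundant genes, when barcodes needed 2000 UMIs, and when hepatocytes were chosen by a marker rule, since Tsc22d3 then passed 1.5-fold. Over the 10 alternatives Mt1 in wt/flox over wt/wt ranged from -3.87 to -3.68, Mt2 from -4.47 to -3.71, Fkbp5 from -2.20 to -1.76 and Ddit4 from -3.53 to -3.13. Of 270 hepatocyte values, 223 stayed within the main counting interval, 46 moved past it, and 1 that had been past 1.5-fold changed sign: Sgk1 in flox/flox over wt/wt, at 0.29 with at least 2000 UMIs. Jdp2, under 20 UMIs and not compared, ranged from -1.71 to 1.92 in flox/flox over wt/wt. The 270 values include those of Jdp2, whose counting intervals are wide, and those of the lower count floor, so some could hardly move. In T-like barcodes Ddit4 in flox/flox over wt/wt turned to 0.10 after subtraction of hepatocyte RNA. The cause of these moves was not tested.

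No paired analysis was possible because each group has 1 library. Ratios cannot be split into genotype, mouse, collection and library, which cannot be told apart here. Depth limits Sgk1 and Ddit4 in hepatocytes and Jdp2, Ddit4 and Mt2 of wt/flox in the small classes, where ratios rest on few UMIs. Subtraction of hepatocyte RNA was read only where both libraries lay above it.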

Other observations

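Further cell classes were not compared above. In monocyte or macrophage-like barcodes Fkbp5 stood at 277 CPM in flox/flox (82 UMIs), 26.1 in wt/flox (8 UMIs) and 181 in wt/wt (20 UMIs), which is 3.92, 3.14 and 5.55 times the level from hepatocyte RNA. In plasmacytoid dendritic-like barcodes it stood at 314, 33.7 and 116 CPM. Ddit4 stood at 125, 65.3 and 218 CPM in monocyte or macrophage-like barcodes, an order like that of hepatocytes. Mt1 was at 1.03, 0.886 and 0.935 times the level from hepatocyte RNA in that class, and at 1.05, 0.562 and 0.809 times it in plasmacytoid dendritic-like barcodes. Tsc22d3 stood at 493, 232 and 275 CPM in neutrophil-like barcodes of flox/flox, wt/flox and wt/wt, where 74.7%, 81.9% and 80.6% of UMIs were put down to hepatocyte RNA. These classes held between 55 and 234 barcodes per library.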
